A study of Mus musculus with 2 samples.

Results

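Among the cells that stick to plastic when mouse bone marrow is cultured, 1885 of 13677 filtered cells were macrophages whose UMIs of Cd36, Gpnmb and Mmp12 outweighed those of Cx3cr1, F13a1 and Slc40a1. They comprised 951 of 5506 cells in the cKO library and 934 of 8171 cells in the WT library. A UMI (unique molecular identifier) marks 1 captured mRNA molecule, and cells passed the filter with 500 or more genes, 1000 or more UMIs and no more than 15% mitochondrial UMIs. Member cells were chosen by 4 gates and 2 sums, all per 10000 UMIs of the cell. In the gates, Csf1r, Adgre1, C1qa, C1qb, C1qc, Mrc1, Ctss and Cd68 summed to at least 20, Col1a1, Col1a2 and Sparc to under 60, the class II genes H2-Aa, H2-Ab1, H2-Eb1 and Cd74 to under 30, and 8 mitotic genes to under 5. Cd36, Gpnmb and Mmp12 then had to sum to at least 5 and to more than Cx3cr1, F13a1 and Slc40a1. Fewer than 3 of Vcam1, Vsig4, Cd5l, Cd163 and Spic had a UMI. All of these genes chose the cells, so their levels below are descriptions, as are comparisons with other classes cut from the same cells.

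The cKO library came from mice with Prrx1-Cre and both Slc31a1 alleles floxed, and the WT library from littermates with floxed Slc31a1 and no Cre, all on a C57BL/6J background. Prrx1-Cre acts in limb mesenchyme, and macrophages are blood-derived cells at which it is not aimed, so Slc31a1, which encodes the high-affinity copper importer, was targeted in the neighbours of the member cells in culture. Marrow of femurs and tibias was grown in alpha-MEM with 10% fetal bovine serum, unattached cells were removed after 48 h, and no drug or bone-inducing medium was given. The ages and number of the mice, and whether their marrow was pooled, are not given in the sources used here. There was 1 library per genotype, made with the 10x Genomics 3' kit, so every difference below is between 2 libraries and has no replicate check. Slc31a1 had 15.1 CPM (UMIs per 1000000 UMIs summed over the cells) in cKO stromal cells and 42.7 CPM in WT stromal cells (the direction of the labels). Member cells had 79.3 CPM in cKO and 73.8 CPM in WT (ratio 1.08, interval 0.974 to 1.19). Which exons are floxed is not given, and a 3' UMI from outside the deleted part would remain.

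Macrophages that clear fatty debris take on a lipid-handling state known from adipose tissue, atheroma and injured tissue. CD36 is a scavenger receptor that takes up oxidised lipoproteins and fatty acids, GPNMB is a glycoprotein of lysosomes and phagosomes that is made when the lysosome is loaded, and MMP12 is an elastase of macrophages. Fatty acids are then carried by FABP proteins, stored with PLIN2 on lipid droplets or freed from esters in the lysosome, and cholesterol leaves through the transporters ABCA1 and ABCG1, whose genes are targets of the sterol-sensing liver X receptors (LXR). The proton pump of the lysosome, the V-ATPase, keeps its hydrolases active.

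General macrophage genes outside the rule were present in the class, with Lyz2, the macrophage lysozyme, at 5679 CPM in cKO and 5822 CPM in WT, and Cd14, a co-receptor for endotoxin, at 78.2 CPM in cKO and 70.9 CPM in WT. Gpnmb dominated the choice of cells. It was at 2009.5 CPM in cKO member cells (1982 to 2037) and 2029 CPM in WT member cells (2003 to 2056), where the range is an exact Poisson 95% interval. Intervals of shares below are exact Clopper-Pearson and those of ratios exact conditional binomial, and all cover counting error only. Cd36 was at 686 CPM in cKO and 483 CPM in WT, and Mmp12 at 75.4 CPM in cKO and 60.6 CPM in WT. Gpnmb gave 72.5% of the UMIs of the trio in cKO and 78.9% in WT, Cd36 24.8% and 18.8%, and Mmp12 2.72% and 2.36%. A Gpnmb UMI was found in 98.4% of cKO and 98.3% of WT member cells, a Cd36 UMI in 88.1% and 81.5%, and a Mmp12 UMI in 18.6% and 12.5%, with UMIs of all 3 in 17.6% and 11.5%. The name thus describes a sum of genes, and Mmp12 marked a minority of the cells. With each cell thinned to 5000 UMIs (190 cKO and 132 WT member cells were shallower), Mmp12 was found in 15.1% of 761 cKO and 9.23% of 802 WT member cells, against 1.36% and 0.581% of stromal cells, which should lack it. The median depth before thinning was 9831 UMIs in cKO and 11320 UMIs in WT member cells, and 59829 UMIs in cKO and 13544.5 UMIs in WT stromal cells.

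Of the given markers that the rule did not use, Adam8, a metalloprotease of leukocytes, was at 414 CPM in cKO and 289.7 CPM in WT. Clec4d, a C-type lectin receptor for glycolipids, was at 285 CPM in cKO and 223 CPM in WT, and Rab7b, a small GTPase of late endosomes, at 311 CPM in cKO and 336 CPM in WT. All 3 were higher than in the mirror class of Cx3cr1, F13a1 and Slc40a1 macrophages of the same libraries: Adam8 1.55-fold in cKO and 1.94-fold in WT, Clec4d 1.30-fold in cKO and 1.63-fold in WT, and Rab7b 1.31-fold in cKO and 1.29-fold in WT. The mirror class (718 cKO and 963 WT cells) passed the same gates with the Cx3cr1, F13a1 and Slc40a1 sum at least 5 per 10000 and no lower than the other sum. Cycling macrophages carried Clec4d at 284 CPM in cKO and 217 CPM in WT, close to the member cells, so Clec4d did not set them apart from dividing ones. The 6 markers lie on GRCm38 as follows: Cd36 on chromosome 5 from 17781690 to 17888801, Gpnmb on chromosome 6 from 49036546 to 49070929, Mmp12 on chromosome 9 from 7344381 to 7369499, Adam8 on chromosome 7 from 139978932 to 139992562, Clec4d on chromosome 6 from 123262111 to 123275265 and Rab7b on chromosome 1 from 131688695 to 131715439.

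**Figure D1:**
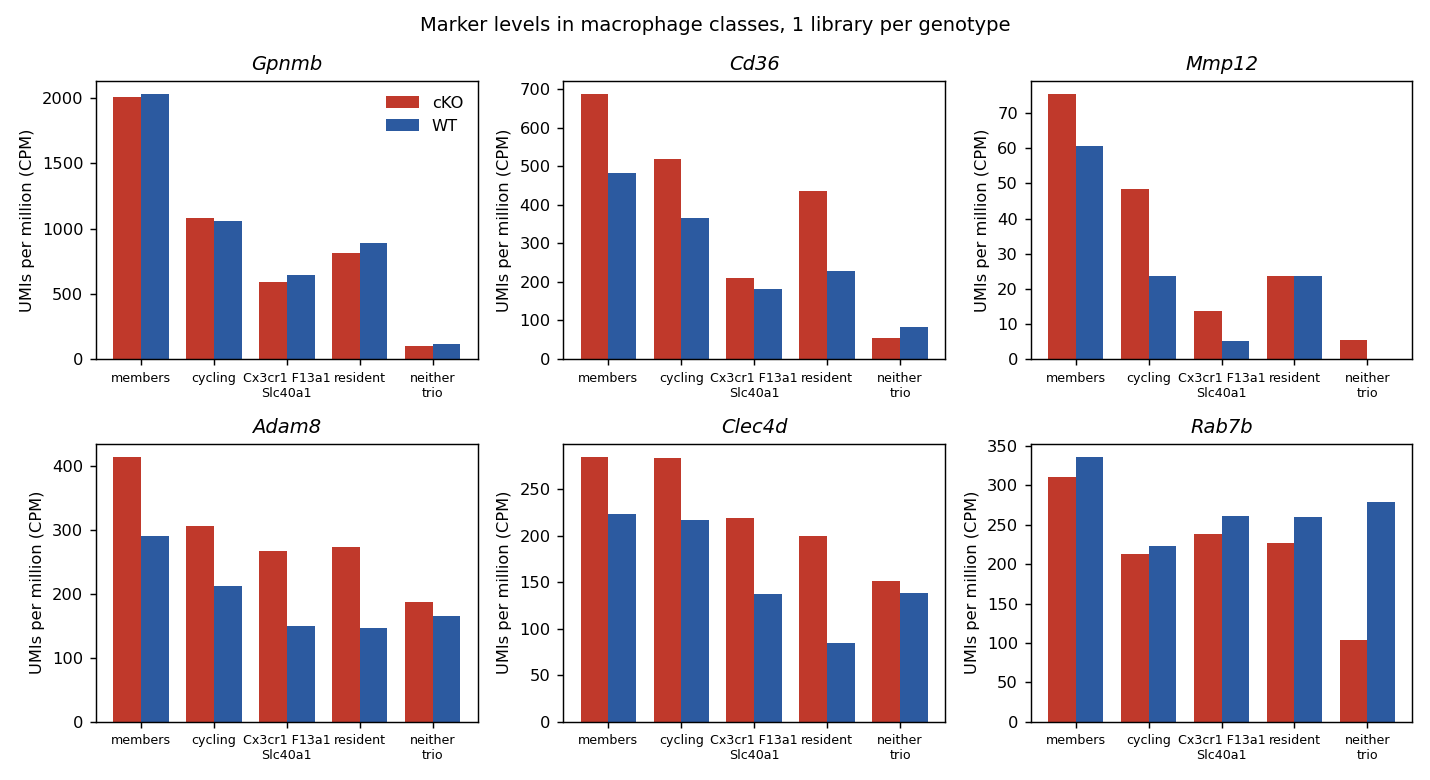
Levels in CPM of the 6 given markers in macrophage classes of the cKO library (red, left) and the WT library (blue, right), 1 library each, without error bars because counting error is small beside the bars of the larger classes. Gpnmb, Cd36 and Mmp12 chose the member cells and are highest there by construction. "Resident" cells had UMIs of at least 3 of Vcam1, Vsig4, Cd5l, Cd163 and Spic (48 cKO and 70 WT cells), and "neither trio" cells reached 5 per 10000 for neither sum (62 and 74 cells).

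Most genes of a lipid-associated macrophage list were higher in member cells than in the mirror class. An uptake and storage list leaned the same way, and a cholesterol efflux and LXR list the other way. Of the 24 measured genes of the lipid-associated list 22 were higher in both libraries (27.9% of 8543 genes were), with median log2 ratios of 0.56 in cKO and 0.58 in WT. Of 17 uptake and storage genes 10 were higher and 4 lower in both libraries, and of 14 cholesterol efflux and LXR genes 4 were higher and 9 lower, with medians of -0.20 and -0.12. Of all genes 44.4% were lower in both libraries, and none of these 14 was 2-fold higher or lower in both. Fabp5, a fatty acid carrier, was at 1766 CPM in cKO and 2178 CPM in WT, and Lgals3, which encodes galectin-3, at 1383 CPM in cKO and 1437 CPM in WT. Spp1, which encodes osteopontin, was at 1294 CPM in cKO and 1183 CPM in WT. Lpl, a lipase that frees fatty acids from lipoproteins, was at 794 CPM in cKO and 789 CPM in WT, and Plin2, the coat protein of lipid droplets, at 286 CPM in cKO and 210.3 CPM in WT. All 5 were higher than in the mirror class in both libraries. Trem2, the lipid-sensing receptor that gives the state its best-known marker, was at 456 CPM in cKO and 542 CPM in WT but stood only 1.09-fold above the mirror class in cKO and 1.18-fold in WT. Apoe went the other way, at 0.685 and 0.892 of the mirror class. Of the 21-gene monocyte list, summed at 6755 CPM in cKO and 6945 CPM in WT and led by Lyz2, Ly6c2 was at 5.34 CPM in cKO and 5.55 CPM in WT and Ccr2, the receptor for CCL2, at 31.2 CPM in cKO and 33.1 CPM in WT.

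Genes of other cell types were present at low levels. Over 15 neutrophil markers the median member cell had 4.07 UMIs per 10000 in cKO and 3.38 in WT, with Ly6g at 0, and over 15 mesenchymal markers 5.44 and 6.21, with none at 0. The summed mesenchymal list reached 540.0 CPM in cKO and 644 CPM in WT member cells, and 11 of its 12 measured genes were lower in cKO (median -0.26). Lists of T or NK, B, endothelial, erythroid, megakaryocyte and mast cell markers had a median of 0 per cell. Single cells stood apart: 1 WT member cell had 2159 UMIs per 10000 of B-lineage genes. A further 6 cKO and 3 WT member cells with at least 20 per 10000 of Acp5, Ctsk and Mmp9 held 71.0% and 82.5% of all such UMIs. Levels of those osteoclast genes in this class thus rest on few cells. Of 7 filtered barcodes found in both libraries, 3 were cKO and 0 were WT member cells.

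Membership was graded rather than sharp. The trio sum had a median of 24.3 per 10000 in cKO and 22.2 in WT member cells, and lay between 5 and 10 in 6.94% and 9.85% of them. The lowest 5 member cells had 5.39 to 5.70 in cKO and 5.01 to 5.28 in WT, and the 5 cells just below the minimum 3.39 to 4.82 and 4.74 to 4.99. In the mirror class 67.0% of cKO and 61.2% of WT cells also reached the minimum of 5, and 58.3% of cKO and 63.1% of WT member cells reached 5 for the opposite sum. The 2 classes are therefore ends of a range, cut where the sums cross: in 13.7% of cKO and 17.0% of WT member cells the trio sum was less than 1.5 times the other.

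The class took a larger share of the cKO library. It made up 17.3% of cKO filtered cells (exact Clopper-Pearson 16.3 to 18.3) and 11.4% of WT filtered cells (10.7 to 12.1). All gated macrophages made up 48.7% of cKO and 36.1% of WT filtered cells, and shares of all cells depend on how many stromal cells a library holds. Among gated macrophages that were not cycling, a denominator free of stromal cells, the class made up 53.5% in cKO (51.1 to 55.8) and 45.8% in WT (43.6 to 48.0), a difference of 7.70 points, and 12.0 points under a stricter cell filter. The mirror class made up 40.4% and 47.2% of the same cells. Cd36 enters the rule and was higher in cKO member cells (below), and its part in these shares was not tested.

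Against the mirror class, 22 of 8543 genes were at least 2-fold higher in member cells in both libraries (0.258%) and 37 were at least 2-fold lower (0.433%). The genes named here have at least 50 CPM and lead by the smaller of both ratios. Fabp4, the adipocyte and macrophage fatty acid carrier, was 2.92-fold in cKO and 3.13-fold in WT, Lgals3 2.75-fold in cKO and 3.06-fold in WT and Fabp5 2.39-fold in cKO and 1.99-fold in WT. Among the 15 highest were also Slc27a1, a fatty acid importer (2.00-fold in cKO and 2.17-fold in WT), Spp1 (2.10-fold in cKO and 1.86-fold in WT) and the tetraspanin Cd9 (1.85-fold in cKO and 1.80-fold in WT). The list goes on with the myelin protein gene Pmp22 (2.43-fold in cKO and 2.12-fold in WT), the giant cadherin gene Fat3 (3.16-fold in cKO and 2.83-fold in WT), and Igf2r, which carries hydrolases to the lysosome (1.86-fold in cKO and 1.85-fold in WT). Atp6v0d2, a V-ATPase subunit of macrophages and osteoclasts, was 2.85-fold in cKO and 4.67-fold in WT, and the osteoclast protease gene Ctsk 1.89-fold in cKO and 4.69-fold in WT. Ctsk rests on the few osteoclast-gene-rich cells counted above, and its ratio differed most between the libraries.

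Several of these genes are also transcribed by stromal cells, the other large population of the culture. Spp1 had 2675 CPM in cKO and 2058 CPM in WT stromal cells, above its member-cell level, and Fabp4 128 and 98.9 CPM. After thinning to 5000 UMIs, a Fabp4 UMI was found in 25.8% of cKO and 29.9% of WT member cells and in 31.6% and 27.5% of stromal cells. The part of free stromal RNA in the levels of these genes was not tested. In the mesenchymal list all 12 measured genes were lower in member cells than in the mirror class in both libraries. Fabp5, Lgals3 and Lpl were lower in stromal cells than in member cells, with Lgals3 at 141 CPM in cKO and 122 CPM in WT stromal cells. Airn, at 149.8 CPM in cKO and 168 CPM in WT, is transcribed antisense to Igf2r. It starts inside Igf2r (chromosome 17, 12682406 to 12769664) and runs beyond it, from 12741311 to 12860136. Reads of the overlap can be counted for either gene where strand is not resolved, so Airn and Igf2r are uncertain.

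The genes lower in member cells included receptors of innate immunity and monocyte genes. Clec4n, which encodes the fungal receptor Dectin-2, had 0.420 times the mirror-class level in cKO and 0.381 times in WT. The lectin genes of the same cluster, Clec4a1, Clec4a2 and Clec4a3, stood at 0.419, 0.519 and 0.527 in cKO and at 0.476, 0.516 and 0.493 in WT. Tlr2, a receptor for bacterial lipoproteins, had 0.482 and 0.505, and Itgal, the integrin chain that binds ICAM1, 0.483 and 0.476. Clec4d, from the same lectin cluster and chosen as a marker, was on the opposite side of 1. Of 14 measured monocyte genes 12 were lower in both libraries, 6 of them at least 2-fold, with Ccr2 at 0.182 and 0.310 (44.4% of all genes were lower in both). Of 25 innate receptor genes 17 were lower, 3 at least 2-fold, and of 16 interferon response genes 13 were lower, 1 at least 2-fold.

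Other groups differed by small amounts in one direction. Of 18 V-ATPase genes 16 were higher in member cells in both libraries, 1 of them (Atp6v0d2) at least 2-fold, with medians of 0.15 in cKO and 0.14 in WT. The same held for 27 of 36 nuclear complex I genes (0.12 and 0.21) and 21 of 23 cholesterol synthesis genes (0.13 and 0.20). Of all 8543 tested genes 27.9% were higher and 44.4% lower in both libraries, and their medians were -0.04 in both. Lysosomal hydrolase and membrane genes went both ways, with 20 of 40 higher and 15 lower, a larger part higher than among all genes. The protease gene Ctsd was 1.63-fold in cKO and 1.43-fold in WT, and Ctsc 0.568-fold in cKO and 0.568-fold in WT. Mirror-class cells were shallower, with medians of 4755.5 UMIs in cKO and 7131 UMIs in WT. When the rule was applied after thinning each cell to 2000 UMIs, 10 genes were at least 2-fold higher and 24 lower.

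**Figure D2:**
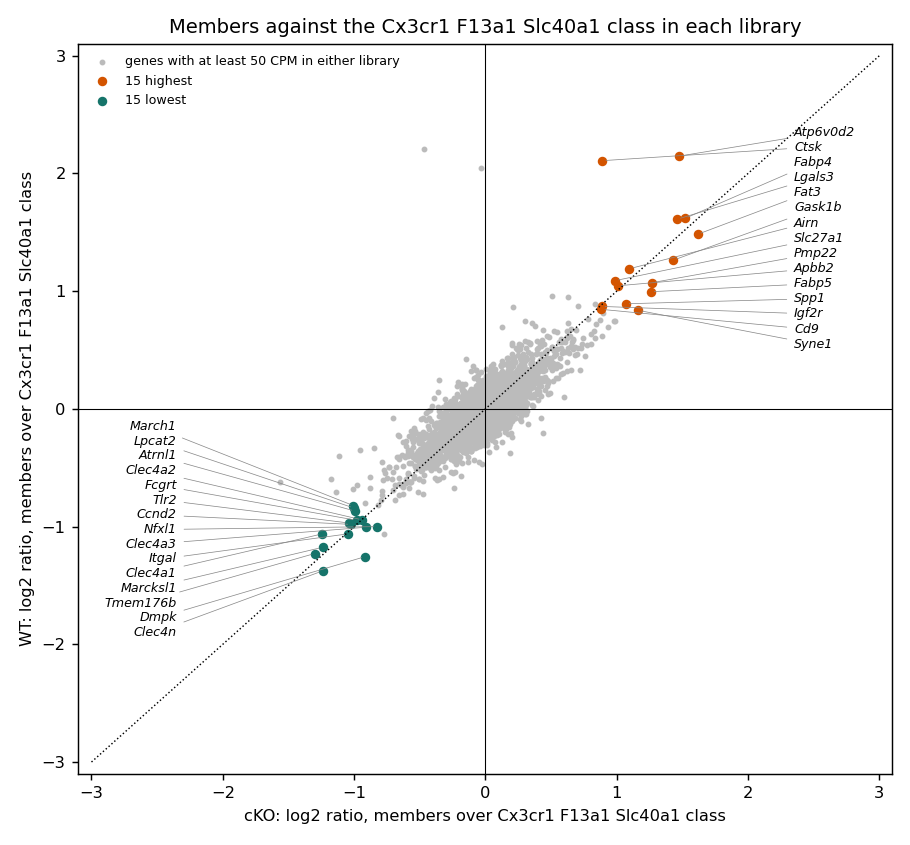
Each point is a gene with at least 50 CPM in member cells of either library. The macrophage genes, both trios and the resident genes of the rule are left out, but its stromal, class II and mitotic genes are not. The axes give the log2 ratio of member cells over the Cx3cr1 F13a1 Slc40a1 class in cKO (horizontal) and WT (vertical), with a prior of 1 CPM. Coloured points are the 15 highest (orange) and 15 lowest (green), and most points lie near the dotted line of equal ratios, Ctsk and Atp6v0d2 excepted.

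Along the trio sum some lipid and lysosome genes were ordered and others were not. In cells with a trio sum of 5 to 10, 10 to 20, 20 to 40 and at least 40 per 10000, Fabp5 was at 847, 1144, 1842 and 2898 CPM in cKO and at 929.5, 1635, 2439 and 3479 CPM in WT, so each step was higher than the one before in both libraries. In the lowest and the highest bin Ctsd was at 4499 and 8336 CPM in cKO and 4752 and 9813 CPM in WT, and Apoe at 3161 and 5205 CPM and 4219.8 and 8019 CPM. Spp1 had its lowest level in the second bin and its highest in the top one, at 844, 738, 1140.0 and 2765 CPM in cKO and 1056, 771, 1118 and 2504 CPM in WT. Not every lipid gene followed: Slc27a1 was at 91.0 and 87.8 CPM in cKO and 77.2 and 57.7 CPM in WT in the end bins, and Lpl and Atp6v0d2 were lower in a middle bin than in the first in both libraries. Ccr2 was lower in each successive bin, with 66.9, 44.8, 26.5 and 7.93 CPM in cKO and 64.0, 50.3, 21.4 and 12.4 CPM in WT, whereas Itgal, also of the monocyte list, was at 80.3 and 117 CPM in cKO and 38.6 and 67.9 CPM in WT in the end bins. Slc31a1 showed no such order, at 62.9 and 53.3 CPM in cKO and 71.0 and 68.6 CPM in WT in the end bins. The genes followed along this axis were picked with values of these data known, the trio itself sets the bins, and the bins held 66, 265, 471 and 149 cKO cells and 92, 292, 446 and 104 WT cells.

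**Figure D3:**
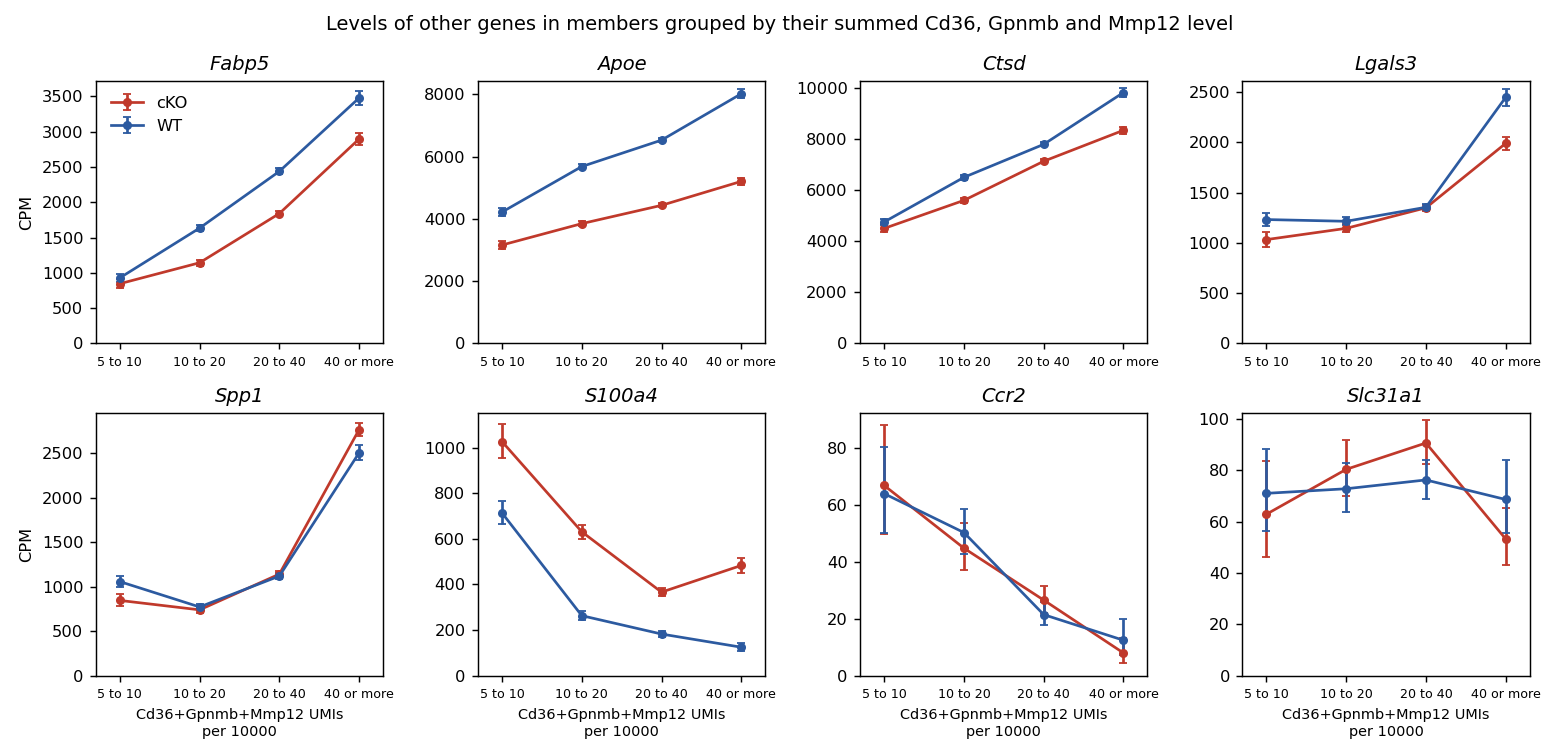
CPM of 8 genes (vertical axes, from 0) in member cells binned by their summed Cd36, Gpnmb and Mmp12 UMIs per 10000 (horizontal axes), in cKO (red) and WT (blue); bars are exact Poisson 95% intervals and cover counting error only. Fabp5, Apoe and Ctsd are higher in each successive bin in both libraries, Ccr2 is lower in each, and Slc31a1 has no order.

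Cells in which Cd36 led the trio differed from those led by Gpnmb. Cd36 had more UMIs than either other gene in 163 cKO and 121 WT member cells, and Gpnmb in 747 and 788. Lpl was at 1334 CPM in Cd36-led and 659.6 CPM in Gpnmb-led cells of cKO, and at 1000.2 and 738 CPM in WT. Plin2 was likewise higher in Cd36-led cells, at 422 against 258 CPM in cKO and 254 against 203 CPM in WT. Fabp5 and Apoe were lower in them: Fabp5 was at 830.0 against 1985 CPM in cKO and 926 against 2385 CPM in WT, and Apoe at 2816 against 4646 CPM and 3798 against 6599 CPM. Ccr2 was higher in Cd36-led cells (64.7 against 23.6 CPM in cKO, 86.3 against 23.8 CPM in WT). Of these lipid genes, Lpl and Plin2 were thus on the Cd36 side and Fabp5 and Apoe on the Gpnmb side in both libraries. Spp1 changed sides, at 1705 CPM in Cd36-led against 1195 CPM in Gpnmb-led cells of cKO, and 886 against 1197 CPM in WT. The genes were picked with their values known, and genes of the class rule cut the subsets. Medians of 10050 and 10055 UMIs in cKO and 11084 and 11438 UMIs in WT give the depths of these subsets.

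Between the libraries, 56 of 8685 genes with at least 10 CPM were at least 1.5-fold higher in cKO member cells (0.645%) and 110 were at least 1.5-fold lower (1.27%); under median-of-ratios scaling these were 73 and 92. In the mirror class, measured on fewer UMIs, 131 genes were higher (1.48%) and 190 lower (2.15%). The median gene had a log2 ratio of -0.02 in both. Among genes with at least 50 CPM, with immunoglobulin and the other gene classes left out of the rankings set aside, the 15 highest and 15 lowest ratios in member cells had the same direction in the mirror class, so none of these 30 was reversed there. Genes with long spans were lower: genes of at least 100000 bases had a median log2 ratio of -0.18 in member cells and -0.17 in the mirror class, against 0.05 and 0.06 for genes under 10000 bases. Of these length groups 3.91% and 0.697% were at least 1.5-fold lower in cKO member cells. The part that gene length plays in the lower genes was not tested.

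Among genes with at least 50 CPM, feedback genes of BMP and TGF-beta signalling had the highest ratios. SMAD proteins carry that signal to the nucleus, where they induce the Id genes, which block differentiation factors, and the inhibitory Smad6 and Smad7. Id3 had 212 CPM in cKO and 97.9 CPM in WT (ratio 2.17, interval 2.01 to 2.34) and Id1 105 CPM in cKO and 49.4 CPM in WT (ratio 2.13, interval 1.92 to 2.37). Smad6 had 51.2 CPM in cKO and 25.1 CPM in WT (ratio 2.04, interval 1.76 to 2.37) and Smad7 59.3 CPM in cKO and 33.8 CPM in WT (ratio 1.76, interval 1.54 to 2.00). Of 14 measured genes of the BMP and TGF-beta list 9 were higher in cKO, 6 of them at least 1.5-fold, with a median log2 ratio of 0.46. Of all genes 45.6% were higher and 54.4% lower in cKO, the shares to set beside the list counts below. List medians below are on the same scale. Id2 (1.55) and the decoy receptor gene Bambi (1.68) complete the 6. Receptor genes were on the other side, with Tgfbr1 at 0.840 and Tgfbr2 at 0.773. The same genes differed in the mirror class, where Id1 had a ratio of 2.71, Id3 2.11 and Smad6 2.23, and the list a median of 0.54. In stromal cells Id1 was at 49.0 CPM in cKO and 21.9 CPM in WT, and Id3, above its member-cell level, at 411 and 298 CPM.

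Immediate early genes, transcribed within minutes of a stimulus or of handling, were also higher, 14 of 18 with a median of 0.31, beside 45.6% of all genes. At least 1.5-fold higher were 4 of them, beside 0.645% of all genes. Klf4 was at 27.6 CPM in cKO and 14.3 CPM in WT (ratio 1.93, interval 1.58 to 2.36), and the phosphatase gene Dusp1 at 32.1 CPM in cKO and 18.8 CPM in WT (ratio 1.71, interval 1.43 to 2.04). Ier2 had a ratio of 1.65 and Myc 1.59, whereas Jun had 0.731 and Atf3 0.817. Of 20 genes of DNA replication 19 were higher (median 0.27). The mitotic gate had removed only cells at or above its limit, so member cells could still carry mitotic UMIs. In the units of that gate, the mitotic sum had a median of 0.78 in cKO and 0.87 in WT member cells. Its upper quartile was 2.02 in cKO and 1.90 in WT. The part of such cells in the replication difference was not tested. The licensing factor gene Cdt1 was at 131 CPM in cKO and 83.6 CPM in WT (ratio 1.57, interval 1.44 to 1.71) and Pcna at 449.8 CPM in cKO and 347 CPM in WT (ratio 1.30, interval 1.24 to 1.35). S100a4, a calcium-binding protein gene of motile macrophages and fibroblasts, was at 506 CPM in cKO and 253 CPM in WT (ratio 2.00, interval 1.91 to 2.09). From the lowest to the highest trio bin S100a4 was at 713, 263, 182 and 124 CPM in WT and at 1026, 630, 366 and 483 CPM in cKO. S100a4 was higher in cKO stromal cells as well (369 against 162 CPM). Of 10 measured chemokine genes 6 were higher, beside 45.6% of all genes, so the list as a whole had no clear direction. Ccl2, which attracts monocytes, was at 189 CPM in cKO and 118 CPM in WT (ratio 1.60, interval 1.49 to 1.72) and Ccl9 at 233 CPM in cKO and 149 CPM in WT (ratio 1.56, interval 1.47 to 1.67). Ccl3 had 0.795 and Pf4 0.802.

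Other genes among the 15 highest had various roles. Rab32 was at 342 CPM in cKO and 195 CPM in WT (ratio 1.76, interval 1.66 to 1.85), Cebpb, a transcription factor gene of monocytes and macrophages, at 255 CPM in cKO and 156 CPM in WT (ratio 1.63, interval 1.53 to 1.73), and St3gal5, which makes the ganglioside GM3, at 209 CPM in cKO and 118 CPM in WT (ratio 1.76, interval 1.65 to 1.89). Itgal, lower in the class than in the mirror class, was at 129 CPM in cKO and 81.0 CPM in WT (ratio 1.59, interval 1.46 to 1.73). The lowest 15 held several long genes. Fat3, one of the genes highest in the class over the mirror class, was at 68.5 CPM in cKO and 134 CPM in WT (ratio 0.511, interval 0.467 to 0.560), and Maml2, a co-activator of Notch signalling, at 92.1 CPM in cKO and 144 CPM in WT (ratio 0.642, interval 0.591 to 0.696). Fat3 and Maml2 have spans over 100000 bases, as do Abca1, Mitf and Mertk below.

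**Figure D4:**
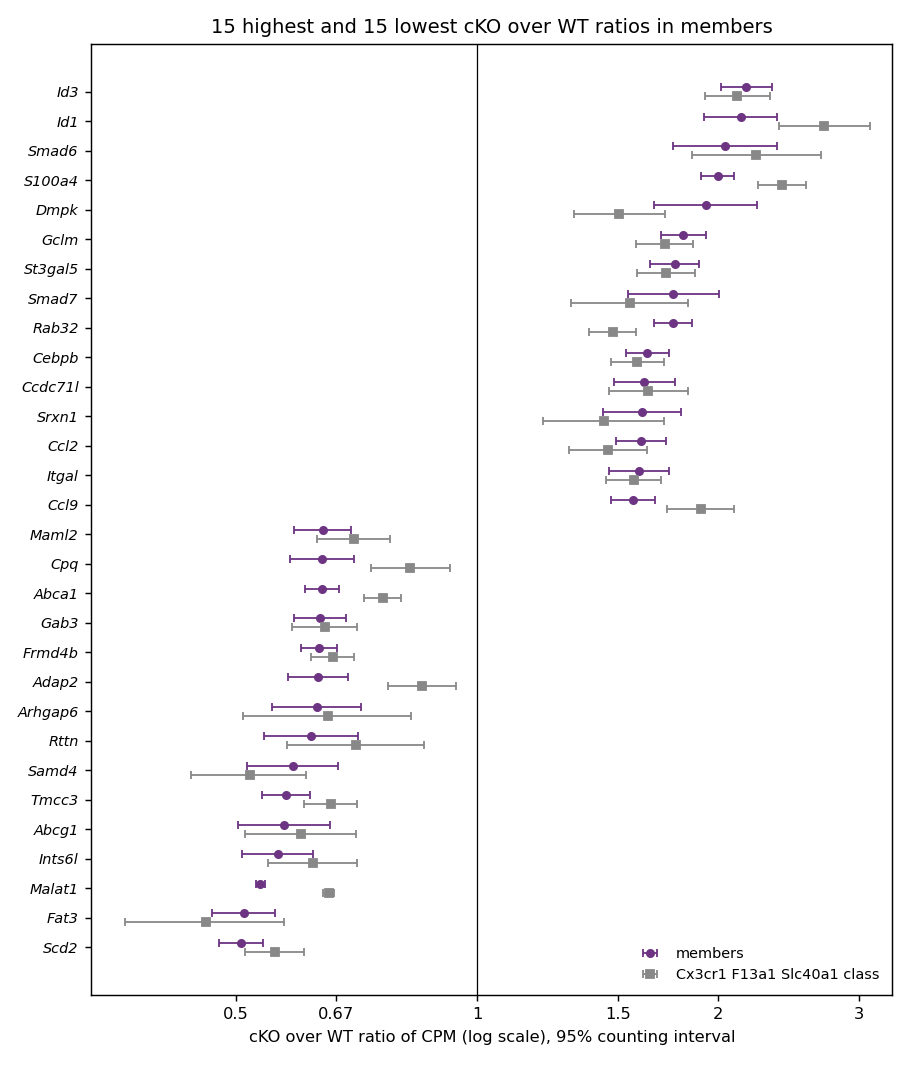
Ratio of CPM, cKO over WT, on a log axis for the 15 genes with the highest and the 15 with the lowest ratio in member cells (purple circles), with the same ratio in the Cx3cr1 F13a1 Slc40a1 class (grey squares); bars are exact conditional binomial 95% intervals and cover counting error only. Grey and purple symbols lie on the same side of 1 for all 30 genes.

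Nearly all genes of the antioxidant list were higher in cKO. NRF2 is a transcription factor that is freed by oxidants and electrophiles and binds antioxidant response elements near genes for glutathione, thioredoxin and iron handling. Of 23 measured genes of the list 22 were higher in cKO member cells, 3 of them at least 1.5-fold, with a median of 0.33 (0.25 in the mirror class); only Blvrb (0.950) was lower. Gclm, the regulatory subunit of glutathione synthesis, was at 246 CPM in cKO and 136 CPM in WT (ratio 1.81, interval 1.70 to 1.93), and Srxn1, which repairs peroxiredoxins, at 77.4 CPM in cKO and 48.2 CPM in WT (ratio 1.61, interval 1.44 to 1.80). Slc7a11, the cystine importer, was low, at 11.7 CPM in cKO and 3.64 CPM in WT (ratio 3.20, interval 2.22 to 4.71). Hmox1, which breaks down haem, was at 752 CPM in cKO and 507 CPM in WT (ratio 1.48, interval 1.43 to 1.54). Prdx1, a peroxide-reducing enzyme, was at 1645 CPM in cKO and 1245 CPM in WT (ratio 1.32, interval 1.29 to 1.35), and catalase (Cat) at 229 CPM in cKO and 161 CPM in WT (ratio 1.42, interval 1.34 to 1.51). The ferritin chains, among the most abundant transcripts of the class, followed: Fth1 was at 28462 CPM in cKO and 23260.5 CPM in WT (ratio 1.22, interval 1.22 to 1.23) and Ftl1 at 15058 CPM in cKO and 13427 CPM in WT (ratio 1.12, interval 1.11 to 1.13). Their mirror-class ratios were 1.08 and 1.00. Of 18 measured iron genes 13 were higher (median 0.11), beside 45.6% of all genes, with the transferrin receptor gene Tfrc at a ratio of 1.31 (1.23 to 1.40).

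Promoters of 20 genes of the list were in the RefSeq table for GRCm38.p6, taken from 250 bases before to 50 bases after the start. The core of the antioxidant response element, TGACNNNGC on either strand, was found in 7 of these 20 (Srxn1, Gclm, Txnrd1, Prdx1, G6pdx, Pgd and Me1), and in 14% of 27025 genes with a promoter. It was also found in 4 of 16 cholesterol synthesis genes, 7 of 33 lysosomal genes and 2 of 12 V-ATPase genes, so it was not particular to this list. The 100-base stretches below are shown because they hold the element in genes that were higher in cKO; the element is in capitals and each reads 5′ to 3′ on the gene's strand (all 4 carry it on the opposite strand). A match of letters is a description and not evidence of binding.
Gclm, chr3:122245377-122245476, plus strand: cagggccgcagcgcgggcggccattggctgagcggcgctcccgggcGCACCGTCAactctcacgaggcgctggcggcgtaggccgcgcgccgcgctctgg
Txnrd1, chr10:82859068-82859167, plus strand: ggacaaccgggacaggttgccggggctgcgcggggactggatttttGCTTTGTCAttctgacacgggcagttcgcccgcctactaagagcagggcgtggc
Prdx1, chr4:116685420-116685519, plus strand: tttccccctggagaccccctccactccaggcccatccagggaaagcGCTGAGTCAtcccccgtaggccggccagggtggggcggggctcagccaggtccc
G6pdx, chrX:74428884-74428983, minus strand: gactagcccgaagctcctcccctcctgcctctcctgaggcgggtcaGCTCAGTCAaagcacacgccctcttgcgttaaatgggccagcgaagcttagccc

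The 4 genes did not differ to the same extent: Gclm had a ratio of 1.81, Prdx1 1.32, Txnrd1 1.26 and G6pdx 1.10 (0.995 to 1.23), the last with an interval that holds 1.

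Genes of cholesterol export and LXR were lower in cKO. Of 14 measured genes 11 were lower, 3 at least 1.5-fold, and 3 higher, 1 at least 1.5-fold, with a median of -0.35 against -0.18 in the mirror class. Scd2, a fatty acid desaturase, had the lowest ratio among genes with at least 50 CPM once immunoglobulin genes are set aside, at 141 CPM in cKO and 278 CPM in WT (ratio 0.507, interval 0.476 to 0.540). Scd2 was at 377 CPM in cKO stromal cells, above its member-cell level, and the part of free stromal RNA was not tested. Abca1 was at 258 CPM in cKO and 403 CPM in WT (ratio 0.640, interval 0.609 to 0.672) and Abcg1 at 34.6 CPM in cKO and 60.3 CPM in WT (ratio 0.574, interval 0.503 to 0.655). Apoe, the apolipoprotein that accepts exported cholesterol, was at 4319 CPM in cKO and 6228 CPM in WT (ratio 0.693, interval 0.685 to 0.702), and its mirror-class ratio was 0.903. Mylip, a ubiquitin ligase gene induced by LXR, had 0.710, and the lipid transfer gene Pltp 0.758. Nr1h3, the gene for LXR-alpha itself, stood on the other side, at 36.5 CPM in cKO and 23.8 CPM in WT (ratio 1.54, interval 1.31 to 1.81).

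Cholesterol synthesis genes were lower by smaller steps: of 23 genes 21 were lower and none reached 1.5-fold, with a median of -0.18. Fdps, which makes farnesyl diphosphate, was at 56.1 CPM in cKO and 79.4 CPM in WT (ratio 0.706, interval 0.634 to 0.786). Most transcripts of both lists were thus on the lower side in the cKO library. Export and synthesis of sterols themselves were not measured.

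Uptake and storage genes did not share a direction, with 8 of 18 higher, 10 lower and none past 1.5-fold. Cd36, which is outside the list and helped to choose the cells, had a ratio of 1.42 (1.37 to 1.47). Higher within the list were Plin2 at 1.36 (1.29 to 1.44), the importer gene Slc27a1 at 1.43 (1.29 to 1.58) and the scavenger receptor gene Msr1 at 1.19 (1.15 to 1.25). Fabp5 was lower at 0.811 (0.795 to 0.827), as was Fabp4 at 0.861 (0.791 to 0.936), and Lpl had 1.01 (0.976 to 1.04). Cd36 was higher in cKO cycling macrophages too, at 518 against 367 CPM, and in the mirror class, where it had been selected against, at 209 against 180.3 CPM. Gpnmb, which chose most of the cells, had 0.990 (0.972 to 1.01). The lipid-associated list as a whole had 13 of 24 genes higher, 11 lower and none past 1.5-fold, with a median of 0.02 whose sign changed in 3 of 15 settings.

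The lysosome differed little between the libraries. Of 40 genes 20 were higher and 20 lower, none by 1.5-fold, with a median of 0.00; the furthest was the protease gene Ctsl at 709 CPM in cKO and 481 CPM in WT (ratio 1.47, interval 1.42 to 1.53). V-ATPase genes were slightly higher, 15 of 18 with a median of 0.09, beside 45.6% of all genes. Atp6v1a was at 696 CPM in cKO and 601 CPM in WT (ratio 1.16, interval 1.12 to 1.20), and the accessory subunit gene Atp6ap1 had a ratio of 1.20. Mitf, a regulator of lysosome and pigment-cell genes, was lower at 214 CPM in cKO and 297 CPM in WT (ratio 0.719, interval 0.681 to 0.760), and Tfeb, its relative, had 0.785 (0.691 to 0.891).

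The MiT/TFE factors encoded by Mitf, Tfeb and Tfe3 bind an E-box core, TCACGTG, near lysosomal genes. It was found on either strand in 11 of 33 lysosomal genes and 4 of 12 V-ATPase genes with a promoter in the table. The other shares were 3 of 16 cholesterol synthesis genes, 0 of 20 antioxidant genes, and 4.29% of 27025 genes. No promoter was in the table for Fabp5, Lpl, Rab7b and Atp6v0d2. The 5 stretches below are shown to set genes that were higher in member cells than in the mirror class (Ctsd, Lamp1, Atp6v1a, Atp6v0b) beside Mcoln1, the lysosomal calcium channel gene, which was not higher in WT; the E-boxes are in capitals, and where 2 overlap on opposite strands they read as 1 run.
Ctsd, chr7:142387873-142387972, minus strand: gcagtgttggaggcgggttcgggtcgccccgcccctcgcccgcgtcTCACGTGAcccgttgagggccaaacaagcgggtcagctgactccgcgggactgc
Lamp1, chr8:13159061-13159160, plus strand: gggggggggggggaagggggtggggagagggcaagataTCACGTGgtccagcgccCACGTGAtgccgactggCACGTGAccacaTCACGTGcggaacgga
Atp6v1a, chr16:44139338-44139437, minus strand: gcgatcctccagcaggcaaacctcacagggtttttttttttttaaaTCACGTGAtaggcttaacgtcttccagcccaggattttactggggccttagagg
Atp6v0b, chr4:117887330-117887429, minus strand: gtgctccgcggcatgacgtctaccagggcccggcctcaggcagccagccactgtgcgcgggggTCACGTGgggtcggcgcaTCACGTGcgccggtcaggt
Mcoln1, chr8:3500419-3500518, plus strand: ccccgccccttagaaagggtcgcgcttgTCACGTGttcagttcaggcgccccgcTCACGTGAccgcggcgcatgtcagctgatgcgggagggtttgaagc

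Against the mirror class Ctsd was 1.63-fold in cKO and 1.43-fold in WT, Lamp1 1.16-fold in cKO and 1.10-fold in WT, Atp6v1a 1.28-fold in cKO and 1.26-fold in WT, Atp6v0b 1.05-fold in cKO and 1.09-fold in WT and Mcoln1 1.17-fold in cKO and 0.994-fold in WT. Of 19 genes of the lipid-associated list with a promoter in the table, 1 (Plin2) held the E-box and 2 (Itgax and Vat1) the antioxidant core. Among all 27025 genes the shares were 4.29% and 14%. These counts say nothing of elements elsewhere.

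Of 19 genes for the uptake of dying cells 13 were lower in cKO, where 54.4% of all genes were, with a median of -0.13. The 1 gene at least 1.5-fold lower was Abca1, which is also on the cholesterol export list. The receptor kinase gene Mertk was at 203 CPM in cKO and 301 CPM in WT (ratio 0.675, interval 0.639 to 0.714) and its relative Axl at 71.4 CPM in cKO and 104 CPM in WT (ratio 0.689, interval 0.626 to 0.757). The bridging protein gene Mfge8 had a ratio of 1.14 (1.01 to 1.28). Innate receptors were mixed, with 14 of 24 higher, beside 45.6% of all genes. Clec4e, which encodes the receptor Mincle and is a neighbour and partner of Clec4d, was low but differed most, at 12.5 CPM in cKO and 3.73 CPM in WT (ratio 3.34, interval 2.33 to 4.87). The phagocyte integrin gene Itgam had 1.25 (1.18 to 1.32), against 0.745 (0.680 to 0.816) for Tlr7 and 0.826 (0.766 to 0.890) for the inhibitory Fc receptor gene Fcgr2b. Most inflammatory cytokine genes were too low to compare: Il1b had 0.791 CPM in cKO and 0.728 CPM in WT, and 9 of 22 genes reached 10 CPM. Of these Nfkbia, the NF-kappaB inhibitor, was at 119 CPM in cKO and 79.0 CPM in WT (ratio 1.51, interval 1.38 to 1.65) and Tnf at 52.3 CPM in cKO and 39.3 CPM in WT (ratio 1.33, interval 1.17 to 1.51). Of 14 interferon genes 9 were lower, none by 1.5-fold, against 54.4% of all genes (median -0.11), with Stat2 at 0.668 (0.576 to 0.773).

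Copper genes split evenly, 8 higher and 8 lower of 16, none by 1.5-fold. The copper exporter gene Atp7a was at 58.3 CPM in cKO and 80.0 CPM in WT (ratio 0.728, interval 0.655 to 0.809). The metallothionein gene Mt2 was at 45.1 CPM in cKO and 29.9 CPM in WT (ratio 1.51, interval 1.31 to 1.75), which the prior of 1 CPM keeps below the threshold. Cox17, which hands copper to complex IV, had a ratio of 1.18 (1.10 to 1.25). Of 36 nuclear complex I genes 25 were lower, none by 1.5-fold, with a median of -0.03 beside -0.02 for all genes.

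**Figure D5:**
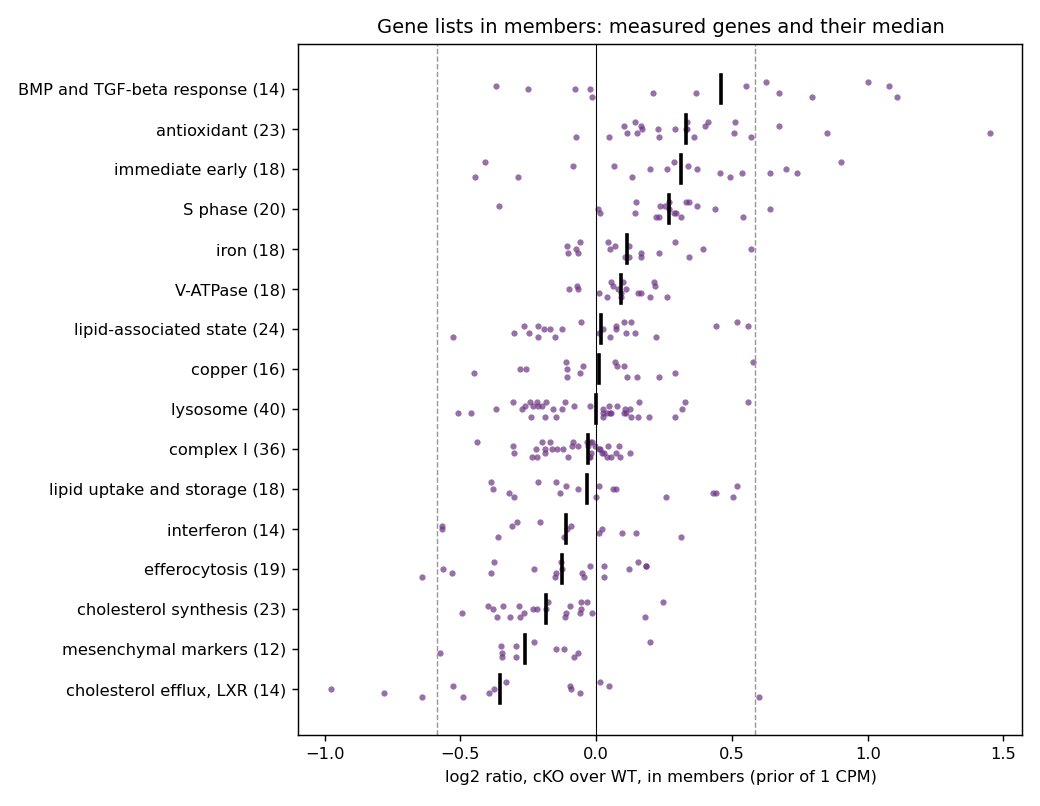
Log2 ratio, cKO over WT, in member cells (horizontal axis) of each measured gene (points) of 16 gene lists, with the number measured in parentheses and the list median as a black bar; dashed lines mark 1.5-fold. Medians run from 0.46 for the BMP and TGF-beta list to -0.35 for cholesterol efflux and LXR, with the lipid-associated and lysosome lists near 0.

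Some differences were of another size in member cells than in the mirror class; the genes given here were chosen after their values were seen. The ratio of both cKO over WT ratios was 1.05 (0.950 to 1.17) for Gclm, 1.03 (0.912 to 1.16) for Id3 and 0.907 (0.817 to 1.01) for Scd2, intervals that hold 1. It was below 1 for Apoe (0.768, interval 0.753 to 0.782), Abca1 (0.839, interval 0.781 to 0.901), Malat1 (0.821, interval 0.804 to 0.839), Adap2 (0.741, interval 0.651 to 0.843) and S100a4 (0.831, interval 0.765 to 0.902), and above 1 for Rab32 (1.19, interval 1.09 to 1.30), a GTPase of lysosome-related organelles, and Fth1 (1.13, interval 1.12 to 1.14). These intervals cover counting error only; both classes come from the same 2 libraries and are not independent of each other. Malat1, a nuclear RNA, was at 3503 CPM in cKO and 6533 CPM in WT in member cells (ratio 0.536, interval 0.529 to 0.543). It was lower in cKO in stromal cells as well, at 9389 against 12287 CPM, so the difference was seen outside the class as well.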

How the data were processed

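Whole-cell 3' UMI counts per gene and barcode were deposited by the authors as 1 matrix per library, made, per the file headers, by Cell Ranger 7.1.0. The submitters' processing notes name mm10 (GRCm38) and Seurat. Neither the handling of intronic reads nor that of free RNA is stated there. The genotype words in the names of the 2 gene list files disagree with the labels, but both lists have the same contents, and the names of the matrices match their labels. The matrices held 6140 cKO barcodes (126031142 UMIs, median 8217) and 9125 WT barcodes (152398639 UMIs, median 7919). The class rule given in the report was applied to the filtered cells, and the counts of each class were summed per library and divided by their total to give CPM: 10109705 UMIs in cKO and 10981652 UMIs in WT member cells.

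With 1 library per genotype no test was made. Ratios carry exact conditional binomial intervals and levels exact Poisson intervals (95%), which cover counting error only; because molecules from one culture are not independent samples, they compare libraries, not genotypes. Fold thresholds (1.5 between libraries, 2 between classes) were applied to log2(CPM + 1), for genes with at least 10 CPM. Genes were named by a rule: at least 50 CPM in either library and among the 15 highest or lowest ratios of a comparison, a gene of the class rule or a given marker, Slc31a1, or among the 4 furthest members of a list; mitochondrial, ribosomal, haemoglobin, immunoglobulin and predicted genes were left out of the rankings. Further list members were picked for the text with their values known. The members and lists were chosen with earlier results of these data known. Scrublet (scanpy 1.11.5) called 1 cKO and 2 WT cells doublets (0.0182% and 0.0245%), too few to be usable, so all cells were kept, and removal of the 242 and 534 top-scoring cells was an alternative. Coordinates and gene spans are from GENCODE M21 (GRCm38), in which 32158 of 32285 gene identifiers were found, and promoters from RefSeq (GRCm38.p6). The ratio and its interval were tested on simulated independent Poisson counts at the class totals. That is the model the interval assumes, so the check covers the calculation and not variation between cells or libraries. Alternatives covered the cell filter, doublets, the class thresholds, depth, weighting, scaling, minimum level and prior. Some genes of the lists are counted in them but not reported here by name.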

Additional observations from a re-analysis of the deposited data

Results flagged for a closer look

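Among named genes with at least 50 CPM, for 3 the cKO over WT ratio pointed one way in member cells and the other way in the Cx3cr1 F13a1 Slc40a1 class, with intervals that left out 1 in both; the difference was not tested, since each genotype has 1 library. Ifitm3, an antiviral membrane protein gene of monocytes, was at 119 CPM in cKO and 154 CPM in WT member cells (ratio 0.777) and had a ratio of 1.19 in the mirror class, so the ratio of both ratios was 0.655. Lgals3 had a ratio of 0.962 in member cells and 1.07 in the mirror class (ratio of ratios 0.9). Igkc, an immunoglobulin gene of B-lineage cells, had 32.2 CPM in cKO and 124 CPM in WT member cells (ratio 0.260) and a ratio of 1.72 in the mirror class (ratio of ratios 0.151); without 1 B-lineage-rich WT cell and the cells rich in osteoclast genes, its ratio in member cells was 1.51.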

How the results depend on the processing

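No paired analysis was possible because each genotype has 1 library, and for the same reason no library could be left out. The difference in the share of gated non-cycling macrophages (7.70 points) was 12.0 points under the stricter cell filter (59.6% of cKO and 47.7% of WT cells). Genes at least 1.5-fold higher in cKO numbered 56, but 88 with each cell weighted equally, 22 at a minimum of 50 CPM, 229 with no minimum and 33 with a prior of 5 CPM; genes at least 1.5-fold lower numbered 110, but 205, 27, 554 and 51 under the same settings and 63 among genes with a span under 100000 bases. Of the 166 genes past 1.5-fold 33.7% were higher in cKO, and 44.2% under median-of-ratios scaling. Genes at least 2-fold higher than in the mirror class numbered 22, but 10 with the rule applied after thinning to 2000 UMIs, 8 at 50 CPM and 12 among genes with a span under 100000 bases; lower genes numbered 37, but 24 after thinning and 14 at 50 CPM. The span limit and the minimum leave fewer genes to count. The span limit left out 1201 of 8681 measured genes with a span, and 47 of those were at least 1.5-fold lower in cKO. The causes of the shifts were not tested. Of 49 named genes past 1.5-fold, 47 kept their direction in every setting run. Jchain and Igkc reversed, to 1.77 and 1.70 at a trio minimum of 10 per 10000, 1.74 and 1.53 at a stromal limit of 20, and 1.91 and 1.51 without the osteoclast- or B-rich cells. List medians kept their sign in 15 settings for the BMP and TGF-beta (0.37 to 0.55), antioxidant (0.29 to 0.36), immediate early (0.24 to 0.38), replication (0.24 to 0.29), LXR (-0.40 to -0.17) and cholesterol synthesis (-0.22 to -0.12) lists. Totals without mitochondrial and ribosomal protein genes were not run for the comparison of classes. The span limit and the removal of osteoclast- or B-rich cells were chosen after seeing the data.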

Other observations

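Other gene groups of the member cells differed little between the libraries. Of all genes 45.6% were higher and 54.4% lower in cKO, and 1.91% differed at least 1.5-fold in either direction. Of 24 measured matrix genes 15 were higher and 9 lower in cKO, 2 of them at least 1.5-fold lower: Hpse, which encodes heparanase, was at 72.3 CPM in cKO and 113 CPM in WT (ratio 0.642, interval 0.585 to 0.704), and the collagenase gene Mmp13 had 0.592 (0.468 to 0.747), whereas Plau, which encodes urokinase, had 1.47 (1.30 to 1.65). Among nuclear receptors and their targets in fatty acid oxidation 10 of 19 genes were higher, none by 1.5-fold, with Pparg at 76.5 CPM in cKO and 98.1 CPM in WT (ratio 0.780, interval 0.710 to 0.856). Glycolysis and hypoxia genes were higher in 10 of 24 cases and nuclear complex IV genes in 13 of 25, none by 1.5-fold, and 9 of 13 mitochondrially encoded genes were lower. Of 9 alternative activation genes 4 were higher, and of 18 autophagy and MiT/TFE genes 7, none by 1.5-fold. Of 8 S100 genes 5 were higher, 1 (S100a4) by 1.5-fold, and of 10 monocyte genes 2, Klf4 and Itgal, both by 1.5-fold.

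Against the 48 cKO and 70 WT macrophages with at least 3 resident genes, 29 of 8696 genes were at least 2-fold higher in member cells in both libraries (0.333%) and 157 at least 2-fold lower (1.81%). The resident genes that chose those cells are outside this count, and the small number of cells limits it.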
